A study of Mus musculus with 32 samples.

Results

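Rosiglitazone (RSG) moved 124 of the 33012 noncontrol probes on the array in one direction in both IL-4 macrophages and immature dendritic cells (iDCs) of PPARg +/-LysCre mice, 59 upward and 65 downward. A probe was taken when its signal-to-noise ratio (S/N) was at least 3 on all 16 PPARg +/-LysCre arrays, when RSG minus vehicle had a single sign in all 4 mice in both cell types, and when the absolute mean of that difference was at least 0.585 on the log2 scale, a 1.5-fold change, in each cell type. Of 3 probes left out by name, 1 met these limits. The balance of the 2 directions depended on the scaling: with median scaling in place of quantile normalisation, or with the authors' ratios, the same rule gave 48 upward and 114 downward. The 2 sets are called raised and lowered, after their direction in PPARg +/-LysCre cells. They were then read in PPARg fl/-LysCre cells, which took no part in the choice.

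The series holds 32 arrays in 8 groups of 4, each mouse of a genotype giving 1 array for each cell type and treatment, and the mice were C57Bl/6. Mice 1 to 4 were PPARg +/-LysCre and carried 1 working and 1 null Pparg allele, and mice 5 to 8 were PPARg fl/-LysCre and carried 1 floxed and 1 null allele. All 8 mice carried LysCre, a recombinase under the lysozyme promoter that acts in myeloid cells, so the controls were heterozygous and not wild type. Bone marrow was cultured for 9 days with 20 ng/ml M-CSF and 20 ng/ml IL-4 for macrophages, or with 20 ng/ml GM-CSF and 20 ng/ml IL-4 for iDCs, with DMSO:ethanol vehicle or 1 uM RSG.

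PPARg is a nuclear receptor that binds DNA as a heterodimer with RXR and is switched on by fatty acid derivatives and by thiazolidinediones, of which RSG is one. In macrophages and dendritic cells it is known for inducing genes of fatty acid uptake, transport and storage, and for lowering inflammatory genes. IL-4 is known to raise PPARg in both cell types, and the lysozyme promoter can leave part of a culture unrecombined. For such mice the study reported near complete recombination by PCR. It also reported that Fabp4 induction by RSG was lost in their bone marrow-derived macrophages.

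The identity of the moved genes could be given only by gene model. Of the 124 probes, 120 carried a Celera mouse gene identifier (mCG) and 4 a sequence identifier, and none was paired with a gene symbol by the reference tables used here. In all, 321 probes of the array had a symbol, and of 99 genes on lists of PPARg targets, LXR targets, activation genes and cell type markers only 2 had a named probe, neither of them among the 124. The lists could therefore not be counted, the labelled cell types were not checked against markers, and no Pparg probe was identified, so deletion was not checked on these arrays. The 124 probes stood for 118 gene models, 6 of which had 2 probes each among them.

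Probe detection (S/N of at least 3) ranged from 13595 to 16683 probes an array, and arrays of a group correlated at 0.943 to 0.981 across the 16620 tested probes. Mouse 5 stood apart from the other PPARg fl/-LysCre mice. Leaving it out moved the probes called between genotypes in vehicle-treated cells from 26 to 2488 in macrophages and from 471 to 2029 in iDCs, whereas leaving out mouse 6, 7 or 8 gave 0 to 4 and 37 to 71. Arrays were scanned on 4 days with 2 mice of a single genotype each, so genotype and scan day cannot be told apart; RSG and vehicle arrays of a mouse shared a day.

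The set was narrowed in steps. Of 10571 probes detected on all 16 PPARg +/-LysCre arrays, 3488 moved one way in all 4 mice in macrophages and 4552 in iDCs, and 1761 did both. Among the 1761, the cell types shared the sign for 1127 and had opposite signs for 634. With the size limit, 124 probes with a shared sign and 21 with opposite signs remained, 11 of the 21 going up in macrophages and down in iDCs. The raised probe closest to the limit from inside was mCG52683.1, whose smaller absolute mean over the 2 cell types was 0.588, and closest from outside was mCG140967 (0.584). For the lowered probes these were mCG15727.1 (0.587) and probe 484924 of mCG13508.2 (0.584). These values chose the set and carry no test.

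In PPARg +/-LysCre cells the raised probes had a median effect of 0.88 (log2, range 0.59 to 2.89) in macrophages and 1.03 (0.59 to 3.20) in iDCs. The lowered probes had a median of -0.92 (-2.06 to -0.59) in macrophages and -1.43 (-3.74 to -0.59) in iDCs. The effect was larger in iDCs than in macrophages for 38 of the 59 raised (64.4%) and 49 of the 65 lowered probes (75.4%), against 61.3% of the 10571 detected probes; these are the values the rule used, given as a description. Within each set the sizes in the 2 cell types were weakly related, with a Pearson r of 0.23 across the raised and 0.25 across the lowered probes. The effects being compared come from the same 4 mice and were bounded below by the rule. In PPARg fl/-LysCre cells, which had no part in the choice, r was 0.33 across the raised and -0.002 across the lowered probes. A 2-fold mean or more was reached by 26 raised probes in macrophages and 32 in iDCs, and by 27 and 42 lowered probes.

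**Figure D1:**
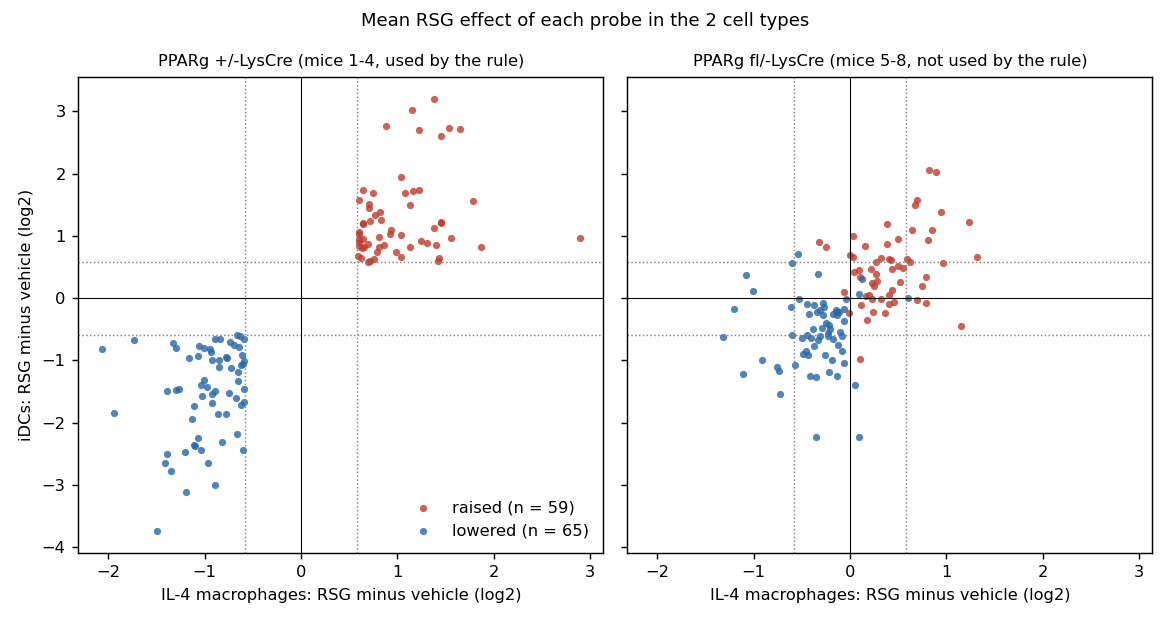
Mean RSG minus vehicle (log2) of each of the 124 probes in IL-4 macrophages (x axis) and iDCs (y axis), raised probes in red and lowered in blue; dotted lines mark the size limit of 0.585. In PPARg +/-LysCre mice (left) every point lies beyond both limits because the rule requires it, and in PPARg fl/-LysCre mice (right) the points lie nearer 0, with medians of 0.39 and 0.46 for raised and -0.31 and -0.56 for lowered probes in macrophages and iDCs.

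Ranked by the smaller of the 2 means, a probe of gene model mCG118280.1 stood first among the raised. This probe (568620) read 18.14, 17.83, 18.26 and 18.16 (log2 level) on the vehicle macrophage arrays of mice 1 to 4 and 19.71, 19.80, 19.79 and 19.68 with RSG. In iDCs it read 15.18, 15.91, 16.26 and 14.64 with vehicle and 17.83, 18.18, 18.70 and 18.11 with RSG. All RSG arrays lay above all vehicle arrays in both cell types, and the mean effects were 1.65 ± 0.22 and 2.71 ± 0.53 (SD, n = 4 mice), or 3.13-fold and 6.53-fold. Probe 925991 of the same gene model had effects of 1.45 ± 0.22 and 2.60 ± 0.57.

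Other raised probes leaned toward one cell type. The probe of mCG63940.2 had the largest macrophage effect of the set, 2.89 ± 0.18, against 0.96 ± 0.42 in iDCs. In the other direction, mCG2957.1 gave 1.38 ± 0.26 in macrophages and 3.20 ± 0.76 in iDCs, where its vehicle level of 8.80 to 9.79 reached 12.22 to 13.06 with RSG. The probe of mCG1178.1 gave 1.16 ± 0.24 and 3.02 ± 0.45, mCG127887.1 gave 1.22 ± 0.20 and 2.69 ± 0.40, and probe 911378 of mCG1645.2 gave 1.53 ± 0.27 and 2.74 ± 0.38. On the vehicle iDC arrays the lowest S/N was 5.3 for mCG2957.1, 4.68 for mCG1178.1 and 3.09 for mCG127887.1, against a detection limit of 3. For probe 911378 it was 23.84. Near-equal effects were seen for mCG124367.1 (1.78 ± 0.21 and 1.55 ± 0.46), mCG10044.2 (1.46 ± 0.26 and 1.21 ± 0.15), mCG134320.1 (1.45 ± 0.20 and 1.23 ± 0.25) and mCG22659.3 (1.38 ± 0.08 and 1.13 ± 0.27).

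By the same rank, mCG9129.2 stood first among the lowered probes. Its vehicle levels of 13.27, 13.51, 12.88 and 13.36 in macrophages stood against 11.25, 11.30, 11.22 and 11.51 with RSG, and those of 12.51, 12.04, 11.99 and 12.41 in iDCs against 10.72, 10.18, 10.12 and 10.53. The mean effects were -1.94 ± 0.23 and -1.85 ± 0.04, a 3.83-fold and a 3.61-fold lower level. The probe of mCG22590.1 had the largest iDC effect of the set, -3.74 ± 0.75 or 13.4-fold, with vehicle levels of 17.67 to 17.84 and RSG levels of 13.52 to 15.04, and was 2.82-fold lower in macrophages. Similar lopsided values were found for mCG9326.1 (-1.19 ± 0.36 in macrophages and -3.11 ± 0.82 in iDCs), mCG9327.1 (-1.41 ± 0.43 and -2.65 ± 1.30), mCG7244.2 (-1.35 ± 0.82 and -2.77 ± 0.54), probe 829280 of mCG3070.2 (-1.39 ± 0.26 and -2.51 ± 0.46), mCG1425.2 (-1.20 ± 0.45 and -2.47 ± 0.26) and mCG146321 (-1.11 ± 0.28 and -2.35 ± 0.97). The remaining named lowered probes were mCG10552.2 (-1.39 ± 0.50 and -1.49 ± 0.84), probe 693200 of mCG1273.2 (-1.29 ± 0.11 and -1.47 ± 0.27), mCG129543.1 (-1.27 ± 0.22 and -1.46 ± 0.39) and mCG16328.1 (-1.13 ± 0.51 and -1.94 ± 0.17).

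Some gene models were measured by more than 1 probe. Of the 118 gene models, 16 had a second probe on the array. In 6 of them both probes were members, in one direction each time: mCG118280.1, mCG4048.2 and mCG4768.2 among the raised and mCG1273.2, mCG3070.2 and mCG59977.2 among the lowered, all chosen by the rule on these values. In the other 10 the second probe was not a member, and 6 of these 10 had both PPARg +/-LysCre means in the direction of their partner. Of the 10, 4 were detected on all 32 arrays, 3 of them in the partner's direction in both cell types: mCG13508.2 (-0.66 and -0.58), mCG14598.2 (-0.94 and -0.68) and mCG1732.2 (0.41 and 1.04). The fourth, the second probe of mCG23147.2, gave 0.81 in macrophages and -0.01 in iDCs.

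Because the rule bounds the PPARg +/-LysCre effects from below, their size was also read in a mouse that took no part in the choice. The rule was applied to 3 of the 4 PPARg +/-LysCre mice, which gave 64 to 75 raised and 69 to 86 lowered probes depending on the mouse left out, and the median effect was taken in the fourth. For raised probes the median in the left-out mouse was 0.72, 1.01, 0.72 and 0.83 in macrophages (mouse 1, 2, 3 and 4 left out) and 1.14, 0.96, 1.14 and 1.08 in iDCs. For lowered probes it was -0.93, -0.66, -0.67 and -0.88 in macrophages and -0.91, -1.30, -1.30 and -1.30 in iDCs. At least 84.6% of the lowered and 95.7% of the raised probes kept their direction in the left-out mouse.

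The same probes were read in the 4 PPARg fl/-LysCre mice, which had no part in the choice either. The highest PPARg fl/-LysCre mouse median for raised probes was 0.41 to 0.57 in macrophages and 0.59 to 0.66 in iDCs over the 4 rounds. For lowered probes the most negative mouse median was -0.42 to -0.52 in macrophages and -0.76 to -0.90 in iDCs. In all 4 rounds, both cell types and both directions, the left-out PPARg +/-LysCre mouse showed a larger effect than each of the 4 PPARg fl/-LysCre mice. The closest values were those of lowered probes in iDCs with mouse 1 left out, -0.91 against -0.84. The rounds share most probes and are not independent, so no p-value is given. Genotype and scan day cannot be told apart in these differences between mice, although RSG and vehicle arrays of a mouse shared a day. Each left-out mouse shared its scan day with a mouse that chose the probes. Detection was required only on arrays of the mice that chose the probes.

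**Figure D2:**
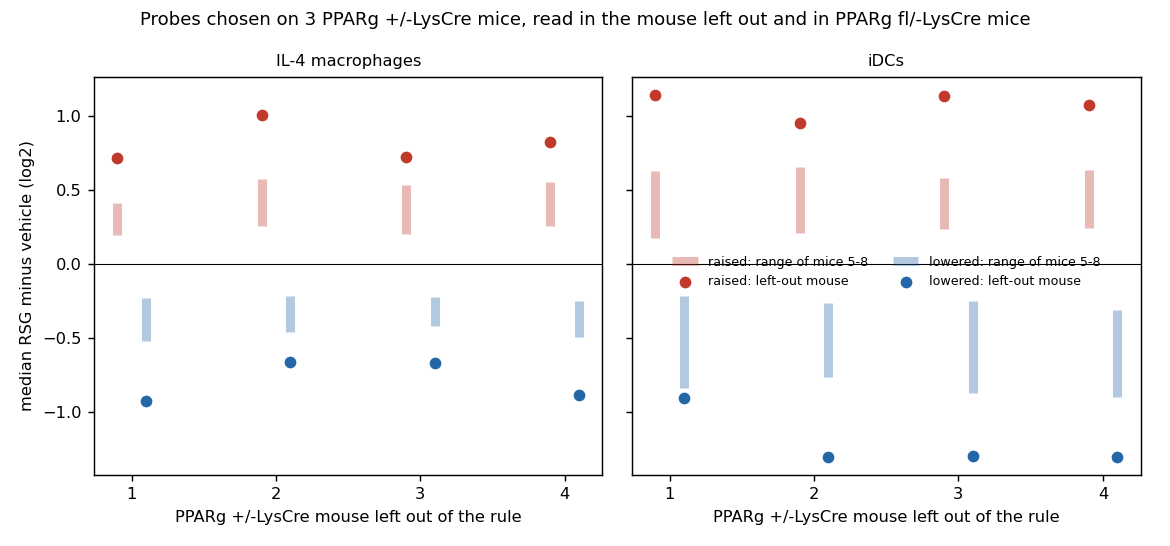
Median RSG minus vehicle (log2, y axis) of probes chosen on 3 PPARg +/-LysCre mice, in the mouse left out (points; x axis) and in the 4 PPARg fl/-LysCre mice (bars from the lowest to the highest mouse median), raised in red and lowered in blue. Every point lies farther from 0 than its bar, the nearest pair being -0.91 and -0.84 for lowered probes in iDCs with mouse 1 left out. Genotype and scan day cannot be told apart.

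Levels were read the same way. With vehicle, the PPARg fl/-LysCre mice lay below the left-out mouse for raised probes in macrophages, with median distances of -0.18 to -0.52 over mice and rounds, and lay at most 0.20 from it in iDCs. With RSG the distance for raised probes was -0.59 to -1.28 in macrophages and -0.33 to -0.88 in iDCs. For lowered probes the vehicle distance ran from -0.16 to 0.40 in macrophages and from -0.60 to 0.07 in iDCs, and with RSG from 0.34 to 0.84 and from 0.11 to 0.68. Under RSG all 4 PPARg fl/-LysCre mice thus lay below the left-out mouse for raised and above it for lowered probes in every round. The vehicle distances for lowered probes were above 0 in macrophages, except in mouse 8 with mouse 4 left out (-0.16), and below 0 in iDCs, except in mouse 5 with mouse 1 left out (0.07). Genotype and scan day cannot be told apart in these level distances.

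Across the whole set of 124 probes, RSG effects in PPARg fl/-LysCre cells lay mostly in the direction seen in PPARg +/-LysCre cells. In these bulk cultures, fewer cells of a type and less RNA per cell cannot be told apart. In mice 5, 6, 7 and 8 the median of the raised probes was 0.47, 0.30, 0.30 and 0.58 in macrophages and 0.64, 0.38, 0.30 and 0.19 in iDCs. The median of the lowered probes was -0.34, -0.27, -0.24 and -0.49 in macrophages and -0.90, -0.31, -0.35 and -0.52 in iDCs. All 16 medians lay on the side set by PPARg +/-LysCre cells, while the median over all 16620 tested probes stayed between -0.06 and 0.04 in these mice. The lowest and highest medians in mice 1 to 4 were 0.88 and 1.03 for raised probes in macrophages, 0.99 and 1.19 in iDCs, -0.96 and -0.89 for lowered probes in macrophages and -1.49 and -1.14 in iDCs, as values that chose the set.

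**Figure D3:**
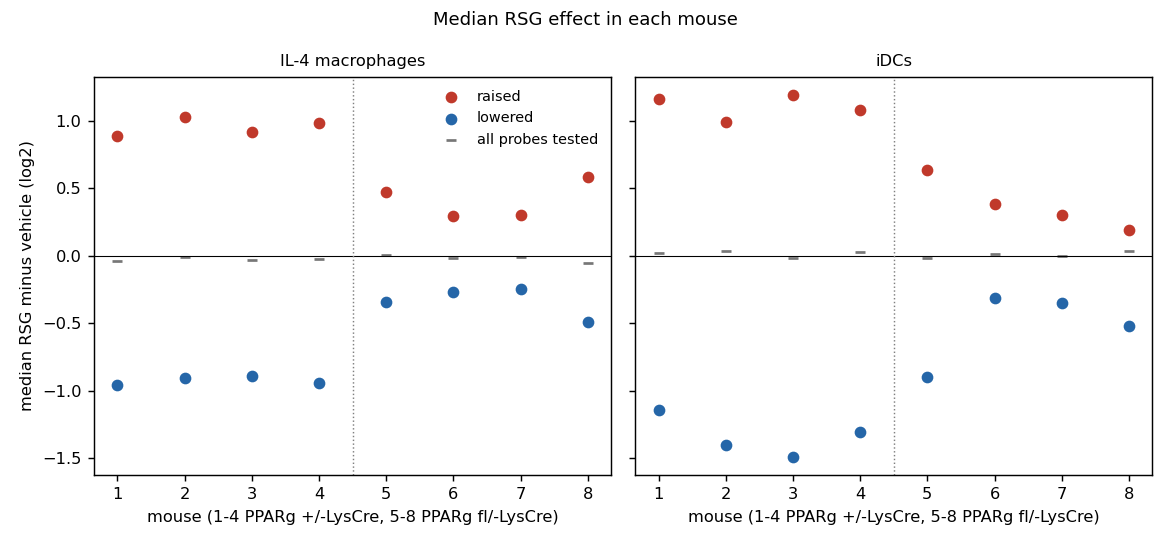
Median RSG minus vehicle (log2, y axis) in each mouse (x axis) over the 59 raised probes (red), the 65 lowered probes (blue) and all 16620 tested probes (grey dashes), in macrophages and iDCs. The 8 raised medians of mice 5 to 8 sit between 0.19 and 0.64 and the 8 lowered medians between -0.90 and -0.24, nearer 0 than in mice 1 to 4, which chose the probes.

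These medians kept their sign without mouse 5 and within each scan day. Taken over mice, the raised median was 0.39 in macrophages and 0.46 in iDCs, and 0.31 and 0.36 without mouse 5. The lowered median was -0.31 and -0.56, and -0.34 and -0.41 without mouse 5. Within the scan day of mice 5 and 6 the 4 medians were 0.37, 0.55, -0.32 and -0.64 (raised macrophages, raised iDCs, lowered macrophages, lowered iDCs), and within that of mice 7 and 8 they were 0.37, 0.28, -0.34 and -0.40. In PPARg fl/-LysCre macrophages the RSG arrays also detected fewer probes (14197 to 15227) than the vehicle arrays (15293 to 16009), and in PPARg +/-LysCre macrophages the count also fell in each mouse, from 15144 to 13959, 15918 to 15250, 15590 to 13933 and 15433 to 13830. The group median went from 15764.5 to 14934.5 in PPARg fl/-LysCre and from 15511.5 to 13946 in PPARg +/-LysCre macrophages. Its part in the macrophage values was not tested.

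A direction shared by all 4 mice was then counted. Among raised probes, 30 of 59 were higher with RSG in all 4 PPARg fl/-LysCre mice in macrophages, against 6.3% of all tested probes, and 35 of 59 in iDCs, against 12.7%. Among lowered probes, 33 of 65 were lower in all 4 mice in macrophages, against 8.9% of all tested probes, and 40 of 65 in iDCs, against 12.2%. Both cell types at once gave 21 raised probes, against 1.39%, and 19 lowered probes, against 1.43%. By the rule all 124 were detected on all 16 PPARg +/-LysCre arrays, whereas 10571 of the 16620 tested probes were. The shares are therefore set side by side as a description, as are the shares of all tested probes given with the calls below. The other direction in all 4 mice was found in iDCs for 3 of the 59 raised probes, where 12.2% of all tested probes were lower, and for 2 of the 65 lowered probes, where 12.7% were higher. It was found for none of the 124 in macrophages. The 3 raised probes were mCG22246.1 (-0.97 ± 0.70), mCG63940.2 (-0.45 ± 0.07) and probe 408227 of mCG1732.2 (-0.22 ± 0.33), and the 2 lowered probes were mCG21161.2 (0.71 ± 0.16) and mCG117700.1 (0.37 ± 0.44; SD, n = 4 mice). For 3 of these 5 the mean rested largely on mouse 8, and without it the mean effect was -0.63 for mCG22246.1, -0.06 for probe 408227 of mCG1732.2 and 0.16 for mCG117700.1. The other probe of mCG1732.2 (911573), detected on all 32 arrays, averaged -0.02 in PPARg fl/-LysCre iDCs.

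When the rule itself was applied to PPARg fl/-LysCre mice, it gave 14 raised and 10 lowered probes of 10476 detected. Of the 14 raised, 12 were among the 59 raised in PPARg +/-LysCre cells, which is 85.7% of the one list and 20.3% of the other. Of the 10 lowered, 4 were among the 65, or 6.15% of the members. The 12 shared raised probes included both probes of mCG118280.1 and of mCG4048.2, and mCG124367.1, mCG2957.1, mCG134320.1, mCG127887.1, mCG10044.2, mCG19440, mCG2294.2 and mCG21309.1. The 4 shared lowered probes were mCG9327.1, mCG1425.2, mCG9326.1 and mCG9333.2.

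**Figure D4:**
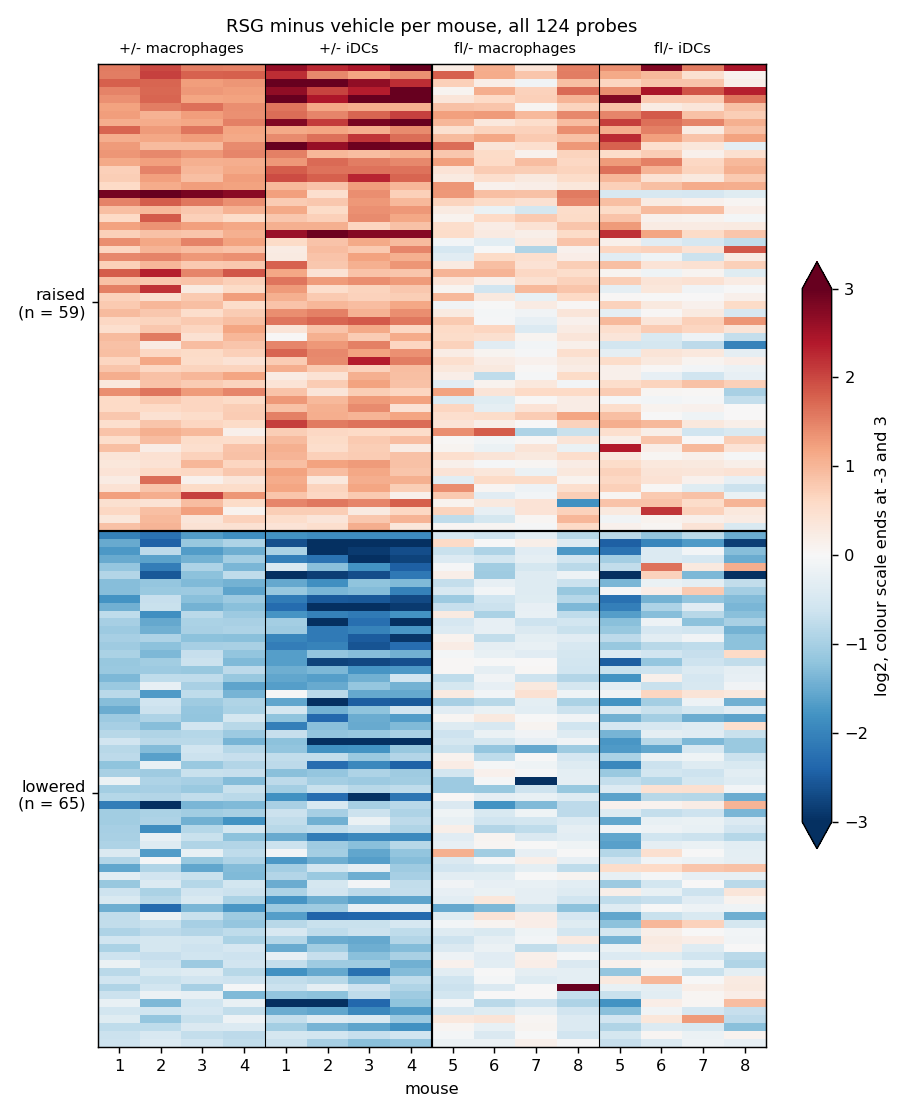
RSG minus vehicle (log2, colour; the scale ends at -3 and 3) for each of the 124 probes (rows, ordered within raised and lowered by the smaller absolute PPARg +/-LysCre mean) in each mouse (columns), by genotype and cell type. The colours of mice 1 to 4 are of one sign by the rule, and in mice 5 to 8 they are paler and mixed, with 21 raised and 19 lowered probes keeping their sign in all 8 columns.

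Averaged over both PPARg fl/-LysCre cell types, 12 raised probes rose with RSG and 5 lowered probes fell by limma, with an adjusted p (Benjamini-Hochberg, over all 16620 tested probes) below 0.05 and a change of 1.5-fold or more. Over all tested probes 0.15% were called higher and 0.15% lower, against 20.3% of the raised and 7.69% of the lowered probes. None of the 124 was called in the direction opposite to its own. The median effect was 0.35 over the raised and -0.42 over the lowered probes, while 8126 of all tested probes lay above 0 and 8494 below it.

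The call for these 17 probes used a spread shared by all 32 arrays, including those on which they were chosen for acting alike. With the 16 PPARg fl/-LysCre arrays alone none of the 124 was called, the 17 having adjusted p from 0.134 to 0.393, and none of the 16620 probes was called either. At an unadjusted p under 0.05 that fit had 28 of 59 raised probes higher, against 2.48% of all tested probes, and 27 of 65 lowered probes lower, against 2.75%. Leaving out mouse 6 left 3 calls among the 124 and leaving out mouse 8 left 5, while without mouse 5 there were 19. Fewer members were also called with median scaling or with the authors' ratios, as given in the last section.

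The probe of mCG19440 had the lowest adjusted p of the raised probes. In PPARg fl/-LysCre macrophages it read 11.16, 12.09, 12.11 and 12.46 with vehicle and 12.11, 13.24, 12.89 and 13.34 with RSG (mice 5 to 8), and in iDCs 12.01, 12.58, 12.48 and 12.62 with vehicle and 14.26, 13.80, 13.35 and 13.83 with RSG. The iDC groups did not overlap, the macrophage groups overlapped through mouse 5, and each of the 8 pairs rose. The average effect was 1.16 ± 0.17 (SE; 2.24-fold, adjusted p = 0.00302).

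For mCG127887.1 the vehicle levels in these macrophages were 10.82, 11.69, 10.61 and 11.02 and the RSG levels 11.81, 12.00, 11.14 and 11.94, and in iDCs they were 9.27, 10.18, 10.24 and 10.53 and 11.36, 11.84, 11.74 and 11.58. The groups overlapped in macrophages and not in iDCs, and all 8 pairs were higher with RSG, by 1.13 ± 0.17 on average (2.19-fold, adjusted p = 0.00305). The probe of mCG10044.2 read 10.58, 10.60, 10.30 and 10.57 with vehicle and 11.05, 11.28, 10.99 and 11.97 with RSG in macrophages, with no overlap, and 11.18, 10.93, 11.20 and 10.81 against 12.27, 12.45, 11.45 and 11.69 in iDCs, again with none. Its average effect was 0.87 ± 0.14 (1.83-fold, adjusted p = 0.00305). The probe of mCG2294.2 rose by 0.87 ± 0.14 (1.83-fold, adjusted p = 0.00388).

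Gene model mCG4048.2 was represented by 2 raised probes. In PPARg fl/-LysCre macrophages probe 339169 read 14.54, 14.34, 13.48 and 14.42 with vehicle and 15.78, 15.62, 14.45 and 15.86 with RSG, and 14.88, 13.81, 13.68 and 14.38 against 16.33, 15.65, 14.55 and 15.13 in iDCs. The levels overlapped in both cell types while each mouse rose, by 1.23 ± 0.20 and 1.23 ± 0.51 (SD, n = 4), where PPARg +/-LysCre mice had 1.22 ± 0.14 and 1.74 ± 0.24. The average effect was 1.23 ± 0.23 (SE; 2.35-fold, adjusted p = 0.0119), and that of probe 646291 was 0.97 ± 0.17 (1.96-fold, adjusted p = 0.00832). The vehicle level of probe 339169 in macrophages was 13.48 to 14.54 in PPARg fl/-LysCre mice and 15.70 to 16.17 in PPARg +/-LysCre mice, with no overlap, where genotype and scan day cannot be told apart.

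The mCG118280.1 probes also rose on average, by 1.43 ± 0.32 (2.70-fold, adjusted p = 0.0412) and 1.46 ± 0.32 (2.74-fold, adjusted p = 0.0386). Probe 568620 in PPARg fl/-LysCre macrophages read 17.51, 15.22, 15.00 and 15.72 with vehicle, mouse 5 standing well above the others, and 17.76, 16.32, 15.41 and 17.23 with RSG. In iDCs it read 15.68, 15.11, 15.38 and 15.71 with vehicle and 17.08, 17.90, 16.94 and 18.16 with RSG, with no overlap. The remaining raised probes called on average were mCG9668.2 (0.73 ± 0.13), mCG21309.1 (0.60 ± 0.12), mCG124367.1 (0.99 ± 0.20) and mCG134320.1 (0.60 ± 0.13). Not called were mCG2957.1, mCG1178.1 and probe 911378 of mCG1645.2 (limma, adjusted p = 0.0715, 0.462 and 0.299). In macrophages and iDCs they gave 0.67 ± 0.27 and 1.49 ± 0.94, 0.97 ± 0.62 and 0.57 ± 0.86, and 0.43 ± 0.46 and 0.62 ± 0.31 (SD, n = 4). Nor was mCG22659.3, at 1.43-fold.

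**Figure D5:**
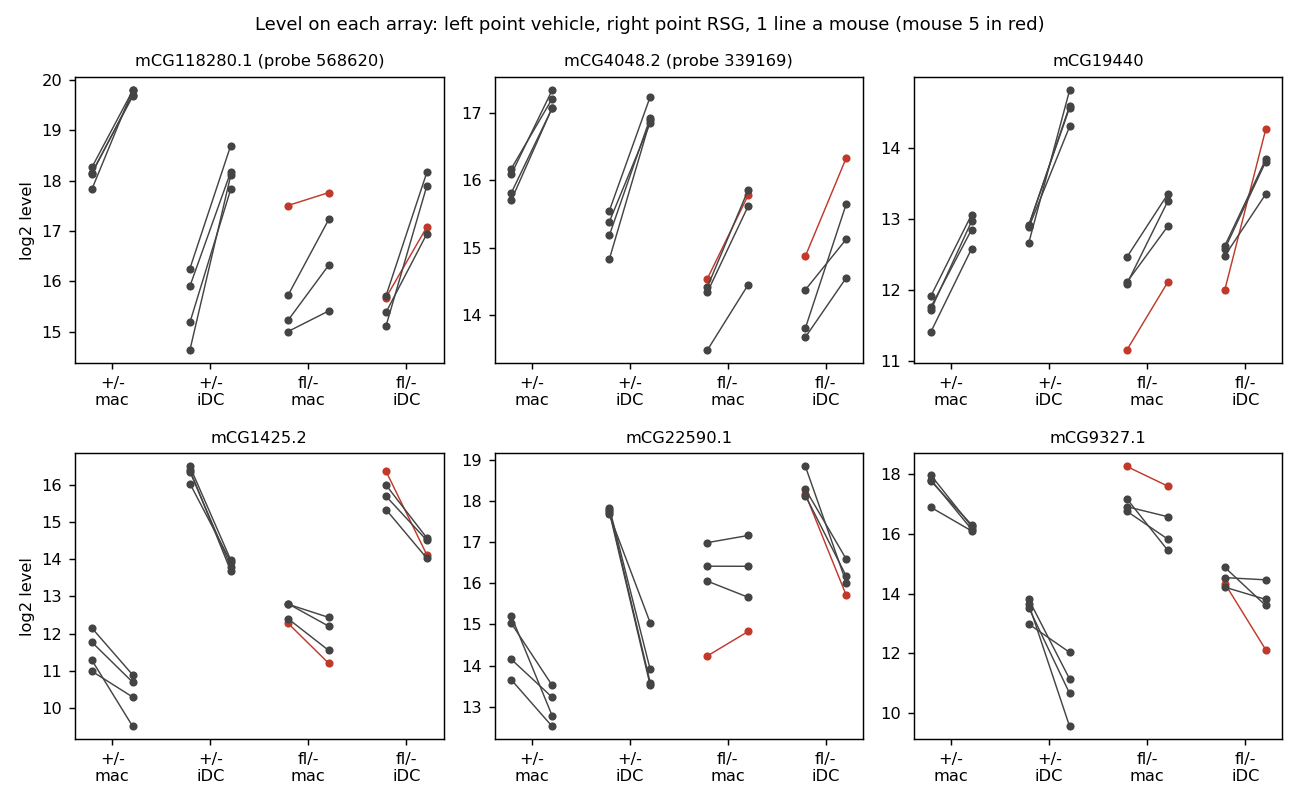
Log2 level (y axis) of 3 raised (top) and 3 lowered (bottom) probes on each array, by genotype and cell type; each line joins the vehicle (left) and RSG (right) array of a mouse, with mouse 5 in red. The probes mCG19440, mCG4048.2 and mCG1425.2 moved one way in all 8 PPARg fl/-LysCre pairs, while mCG22590.1 fell in iDCs (-2.23) and averaged 0.09 in macrophages.

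Of the lowered probes, mCG1425.2 had the lowest adjusted p. In PPARg fl/-LysCre macrophages it read 12.28, 12.81, 12.79 and 12.40 with vehicle and 11.20, 12.20, 12.44 and 11.55 with RSG, and in iDCs 16.37, 16.00, 15.70 and 15.34 with vehicle and 14.12, 14.58, 14.51 and 14.03 with RSG. The iDC groups did not overlap, the macrophage groups overlapped, and all 8 pairs fell. The average effect was -1.13 ± 0.20 (2.19-fold lower, adjusted p = 0.00832). The other lowered calls were mCG145516 (-0.68 ± 0.13, adjusted p = 0.014), mCG22272.1 (-0.70 ± 0.13, adjusted p = 0.014), AK046352.1 (-0.59 ± 0.13, adjusted p = 0.0346) and mCG16328.1 (-0.84 ± 0.19, adjusted p = 0.0456).

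Several lowered probes with large PPARg +/-LysCre effects did not pass on average. For mCG9129.2 the effect was -0.57 ± 0.22 in macrophages and -1.08 ± 0.33 in iDCs (SD, n = 4), lower in 8 of 8 pairs, with an adjusted p of 0.0519. With the mouse as a block it passed by limma (-0.82 ± 0.17 SE, adjusted p = 0.02), as did probe 829280 of mCG3070.2 (-0.66 ± 0.15, adjusted p = 0.0368). That fit called 72 of all tested probes (0.433%). Its spread was shared with the PPARg +/-LysCre arrays, on which the members were chosen for acting alike, so these calls rest in part on the rule. No fit with the mouse as a block is given for the PPARg fl/-LysCre arrays alone. The probe of mCG10552.2 gave -0.60 ± 0.43 in macrophages, where all 8 PPARg fl/-LysCre arrays detected it, and that of mCG7244.2 gave -0.36 ± 0.53, likewise detected. In iDCs mCG10552.2 was detected on 1 of 4 vehicle and 3 of 4 RSG arrays and mCG7244.2 on 2 and 1, so no iDC effect is given for either. The probe of mCG129543.1 gave -0.53 ± 0.44 in macrophages and -0.01 ± 0.75 in iDCs. All 16 arrays detected 55 of the 59 raised and 57 of the 65 lowered probes.

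Within PPARg fl/-LysCre iDCs, 8 raised probes were called higher with RSG and 6 lowered probes lower (limma, same limits). Over all tested probes 0.367% were called higher and 0.325% lower, against 13.6% of the raised and 9.23% of the lowered probes. The spread here too was shared with the PPARg +/-LysCre iDC arrays on which the members were chosen for acting alike, so these shares rest in part on the rule. With the PPARg fl/-LysCre iDC arrays alone 13 of the 14 lost the call, the 14 having adjusted p from 0.0378 to 0.311. The probe of mCG9668.2 had the lowest adjusted p, with vehicle levels of 12.16, 12.10, 11.84 and 11.80, RSG levels of 12.88, 13.00, 12.96 and 12.88, no overlap, and an effect of 0.95 ± 0.11 (1.94-fold, adjusted p = 0.00294). The others were mCG19440 (1.39 ± 0.18), probe 499718 of mCG4768.2 (0.82 ± 0.12), mCG2294.2 (1.10 ± 0.17), mCG127887.1 (1.57 ± 0.26), both probes of mCG118280.1 (2.05 ± 0.35 and 2.02 ± 0.32) and probe 646291 of mCG4048.2 (1.09 ± 0.23).

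The largest lowered effect called in these iDCs was that of mCG22590.1. It read 18.17, 18.13, 18.29 and 18.84 with vehicle and 15.71, 16.18, 16.59 and 16.02 with RSG, the groups standing far apart, for an effect of -2.23 ± 0.29 (4.71-fold lower, adjusted p = 0.00372). In PPARg fl/-LysCre macrophages it read 14.24, 16.42, 16.99 and 16.05 with vehicle and 14.83, 16.41, 17.16 and 15.66 with RSG, and 2 of 4 mice went each way. The other lowered calls were mCG1425.2 (-1.54 ± 0.20), AK046352.1 (-0.99 ± 0.13), mCG22272.1 (-1.19 ± 0.22), mCG16328.1 (-1.25 ± 0.25) and mCG145516 (-0.92 ± 0.19). The mouse as a block ended the call of mCG145516 (limma, adjusted p = 0.0882) and added 6 others, among them mCG9129.2 (adjusted p = 0.0158) and probe 339169 of mCG4048.2 (adjusted p = 0.0316). It called 202 of all tested probes (1.22%), and its spread was likewise shared with the PPARg +/-LysCre iDC arrays. With median scaling or the authors' ratios fewer members were called, as given in the last section. With the PPARg fl/-LysCre iDC arrays alone only mCG22590.1 stayed called (adjusted p = 0.0378), among 6 of all tested probes (0.0361%), and without mouse 6 or mouse 8 the 14 calls became 5 and 6. At an unadjusted p under 0.05, 29 raised probes were higher, against 5.79% of all tested probes, and 30 lowered probes were lower, against 5.12%; with the PPARg fl/-LysCre iDC arrays alone these were 23, against 3.87%, and 24, against 3.45%.

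In PPARg fl/-LysCre macrophages, in a fit that likewise shared its spread with the PPARg +/-LysCre arrays, none of the 124 probes was called by limma, and none of the 16620 tested probes was (0.0%). At an unadjusted p under 0.05, 18 of 59 raised probes were higher, against 0.963% of all tested probes, and 17 of 65 lowered probes were lower, against 2.03%. With the PPARg fl/-LysCre macrophage arrays alone these were 15, against 0.89%, and 8, against 1.84%, and again none was called. With the mouse as a block, which pairs the arrays of an animal, 2 raised probes passed, mCG19440 (0.94 ± 0.08, adjusted p = 0.0159) and probe 339169 of mCG4048.2 (1.23 ± 0.09, adjusted p = 0.0137). They were 2 of the 5 calls among all tested probes (0.0301%). This fit too shared its spread with the PPARg +/-LysCre arrays, on which the members were chosen for acting alike. These 2 calls therefore rest in part on the rule. The probe of mCG124367.1 had the largest raised mean, with vehicle levels of 15.36, 16.06, 15.95 and 16.41, RSG levels of 17.15, 17.16, 16.79 and 17.95, no overlap, and an effect of 1.32 ± 0.26 (adjusted p = 0.452). Among lowered probes mCG1865.2 was at 14.80, 14.48, 14.49 and 14.50 with vehicle and 13.27, 13.12, 13.81 and 13.26 with RSG, also without overlap (-1.20 ± 0.19, adjusted p = 0.149).

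None of the 124 probes was called for a difference in RSG effect between PPARg fl/-LysCre iDCs and macrophages. Over all tested probes 18 of 16620 (0.108%) were called. At that share few sets of 124 probes would hold a call, so its absence says nothing about the members. At an unadjusted p under 0.05, with the spread shared in the same way, the effects differed for 9 raised and 11 lowered probes, 16.1% of the set against 5.93% of all tested probes. The median difference, iDCs minus macrophages, was 0.01 over the raised and -0.20 over the lowered probes. The largest was that of mCG22590.1 (-2.33 ± 0.67, adjusted p = 0.276). With the mouse as a block 1 lowered probe, mCG124884, passed (-1.45 ± 0.28, adjusted p = 0.0323), among 51 of all tested probes (0.307%). This fit also shared its spread with the PPARg +/-LysCre arrays.

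Many of the probes differed in level between the 2 cell types without RSG. In vehicle-treated PPARg fl/-LysCre cells 75 of the 124 were called between iDCs and macrophages (limma), 60.5% against 27.6% of all tested probes. The spread of this fit was shared with the PPARg +/-LysCre arrays, on which the members were chosen for acting alike. Among the raised probes 23 were higher in iDCs (39.0%, against 12.4% of all tested probes) and 11 lower (18.6%, against 15.2%). Among the lowered probes 12 were higher in iDCs (18.5%) and 29 lower (44.6%). All 124 were detected on all PPARg +/-LysCre arrays by the rule, whereas 10571 of the 16620 tested probes were. The shares are therefore set side by side as a description.

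Examples of both directions were found in each set. The raised probe of mCG122036.2 read 12.56, 12.65, 13.53 and 12.83 in vehicle macrophages and 15.58, 15.31, 15.84 and 16.10 in vehicle iDCs of mice 5 to 8, 7.03-fold higher in iDCs (2.81 ± 0.20, adjusted p = 1.71e-11), and probe 408227 of mCG1732.2 (2.51 ± 0.21), mCG133799.1 (2.28 ± 0.20) and mCG3227.1 (2.43 ± 0.22) were likewise higher. The raised probe of mCG16325.2 was lower in iDCs (-1.46 ± 0.14). The lowered probe AK080849.1 read 13.97, 14.15, 14.25 and 14.18 in macrophages and 10.97, 10.63, 10.85 and 10.75 in iDCs, 10.1-fold lower in iDCs (-3.33 ± 0.15, adjusted p = 2.24e-15). The lowered probes of mCG122280 (-2.80 ± 0.20) and mCG3081.1 (-4.19 ± 0.41) were lower in iDCs as well, and those of mCG1425.2 (3.28 ± 0.28) and mCG1865.2 (2.72 ± 0.27) were higher. The adjusted p given for these probes came from the fit whose spread was shared with the PPARg +/-LysCre arrays. With the 8 vehicle PPARg fl/-LysCre arrays alone, 65 of the 124 were called, against 24.7% of all tested probes. There the 75 probes called with the shared spread had adjusted p from 5.92e-06 to 0.171 (limma).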

How the data were processed

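DIG-labelled cRNA of each culture was hybridised to 1 Applied Biosystems chemiluminescence array. The deposited tables give, per probe and array, a background-corrected spot signal intensity and a signal-to-noise score; the scanner software is not given in the sources used here. The authors' value table holds ratios to the probe's median over arrays, which were used as an alternative. Signals were log2 transformed and quantile normalised over 32 arrays. Probes with an S/N of at least 3 on at least 3 of 4 arrays of any group were tested (16620, including all 124 members).

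Group means were fitted with limma 3.58.1 (R 4.3.3) and without a mouse term, on the arrays of 1 cell type for RSG effects and on all 32 for comparisons across cell types. Calls required 1.5-fold and an adjusted p (Benjamini-Hochberg) below 0.05. Symbols came from a RefSeq table for 311 probes and from gene lists of the study for 10. Fits were tested on simulated data.

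The members and lists were chosen with earlier results of these data known. Named are the 12 raised and 12 lowered members with the largest smaller mean, up to 5 called members per direction and test by adjusted p, and those nearest the size limit. Other members are named where a count is given in full or a value stands out, after their values were seen.

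Replicates are separate mice, and the 4 arrays of a mouse pair by animal. Deviations from group means correlated at a median of 0.28 within mouse and cell type (16 pairs) and -0.09 between mice (48 pairs). The number of arrays limits the precision.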

Additional observations from a re-analysis of the deposited data

Results flagged for a closer look

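Dixon's ratio of the gap to the range was examined in 184 sets of 4 mouse effects, from 44 probes (those named by rule and those that moved the other way in all 4 PPARg fl/-LysCre mice) and the 8 medians over the raised and lowered probes. A single mouse lay apart from its group in 12 sets. For values that had no part in a choice, about 1 set in 20 would do so by chance. The rule used the PPARg +/-LysCre effects, and some probes were named by their PPARg fl/-LysCre results. The flags are therefore a description and carry no test. In PPARg +/-LysCre macrophages this was mouse 2 for probe 568620 of mCG118280.1 (0.891), mCG146321 (0.937), mCG122280 (0.903) and mCG22246.1 (0.862). In PPARg +/-LysCre iDCs it was mouse 1 for mCG134320.1 (0.842) and mCG2294.2 (0.972), and mouse 3 for AK080849.1 (0.841). For PPARg fl/-LysCre mice it was mouse 8 for probe 499718 of mCG4768.2 in macrophages (0.864). In their iDCs it was mouse 8 for probe 408227 of mCG1732.2 (0.922) and mCG117700.1 (0.871), and mouse 5 for mCG3227.1 (0.861) and mCG122280 (0.93).

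In iDCs, 5 members moved one way in all 4 PPARg +/-LysCre mice and the other way in all 4 PPARg fl/-LysCre mice. Of the 59 raised probes 3 did so, against 12.2% of all tested probes lower in all 4 PPARg fl/-LysCre mice, and of the 65 lowered probes 2, against 12.7% higher. The PPARg fl/-LysCre effects (log2) were 0.374 for mCG117700.1 and 0.713 for mCG21161.2, both lowered in PPARg +/-LysCre cells, and -0.219 for probe 408227 of mCG1732.2, -0.971 for mCG22246.1 and -0.453 for mCG63940.2, all raised there. Without mouse 8 the mean was 0.16 for mCG117700.1, -0.06 for probe 408227 of mCG1732.2 and -0.63 for mCG22246.1. The other probe of mCG1732.2 (911573) averaged -0.02 over the 4 PPARg fl/-LysCre mice in iDCs. The difference between genotypes was not tested.

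Within PPARg fl/-LysCre mice, 3 of these also moved in opposite directions in all 4 mice between iDCs and macrophages, with a difference in RSG effect of 1.45 for mCG117700.1, 1.25 for mCG21161.2 and -1.61 for mCG63940.2. By limma these differences had adjusted p of 1.0, 0.498 and 0.186.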

How the results depend on the processing

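Of 675 values of 49 named results, 548 kept direction and side of the threshold, 115 lost the call, 10 gained it and 2 changed sign; both were of mCG10552.2 (average effect -0.02, with 1 of 4 vehicle iDC arrays detecting it), at 0.11 without mouse 5 and 0.02 without mouse 7 (-0.12 to 0.11 without a mouse). In macrophages the calls among the 124 (0) became 2 with the mouse as a block and 0 to 1 without a mouse. In iDCs the 14 calls became 9 with median scaling, 9 with the authors' ratios, 1 with the compared arrays alone, 0 and 31 by the methods' t-test with and without adjustment, and 5 to 11 without a mouse. The 17 average calls became 9, 9 and 0 under those first 3 settings, 10 without a detection filter, 6 at 2-fold and 3 to 19 without a mouse. With the mouse as a block iDC calls were 19, average calls 22, cell type calls 78 and calls for the difference between cell types 1. That last count was 0 to 0 without a mouse, and cell type calls without a mouse were 68 to 80. For the scalings, the t-test, the filter, the 2-fold limit and fits without a mouse, the share of all tested probes is not given. Those counts describe the dependence on processing only.

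The rule gave 114 lowered probes with median scaling and 114 with the authors' ratios (61 shared with the 65), and 48 raised with each (38 shared with the 59); it gave 101 lowered when 12 of 16 arrays sufficed, and 16 raised and 19 lowered at a mean of 1; without a mouse it gave 64 to 75 and 69 to 86. Median scaling moved the median over all tested probes to -0.18 in PPARg +/-LysCre and -0.13 in PPARg fl/-LysCre macrophages, and the lowered macrophage median to -0.45 (with the ratios, -0.45). Without a mouse the medians ran from 0.31 to 0.44 and 0.36 to 0.52 for raised probes in macrophages and iDCs, and from -0.35 to -0.29 and -0.61 to -0.41 for lowered probes. The methods' t-test was not run for the average and the difference between cell types. Causes of these shifts were not tested.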
